A study of Mus musculus with 8 samples.

Results

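Long intergenic noncoding RNAs (lincRNAs) are transcripts that do not overlap the exons of protein-coding genes and have no annotated open reading frame. The well expressed lincRNAs of the mouse cornea were taken as the genes of the type lincRNA in GENCODE vM21 (GRCm38) whose rlog values averaged 8 or more over the 8 corneas, that is, they were chosen by their measured level. The rlog value of DESeq2 is on a log2 scale, is normalized for library size, and is shrunken towards the mean of a gene where few reads were counted. The rule left 59 of the 5535 lincRNA genes in the table, which holds 54532 genes of all types. It used only the mean over both strains, so the levels given here describe the choice. The difference between the strains was not used directly and was tested, but a gene under 8 in a strain could pass through the other strain.

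The corneas came from naive, untreated mice of 2 inbred strains, with 4 corneas of BALB/cN mice (named BALB/c in the sample labels) and 4 corneas of C57BL/6N mice. Neither strain carried an engineered allele, and only male animals were used for sequencing. The study compared the strains because they differ in the lymphatic vessels at the corneal limbus. Total RNA was sequenced from strand-specific libraries, so that RNA without a poly(A) tail was measured too. The labels do not say whether the corneas came from separate animals, so p-values measure the spread between these corneas. The table holds no read counts, and the depth behind each value is unknown.

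Markers of the corneal epithelium were high in every cornea, with a mean rlog value of 16.33 to 16.62 over 8 genes. In 3 corneas the stromal part was small: the mean of 8 stromal keratocyte genes was 12.41 in BALB/cN 2, 11.5 in C57BL/6N 3 and 11.63 in C57BL/6N 4, against 14.15 to 14.45 in the other 5. The mean of 11 lens genes was 7.47 and 6.69 in BALB/cN 1 and 4, against 4.83 to 5.42 in the others, and these 2 corneas were also highest for 7 genes of pigment cells. In whole corneas, fewer cells of a type and less RNA per cell cannot be told apart.

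LincRNAs act in several ways. Malat1 and Neat1 stay in the nucleus, where Malat1 gathers in speckles beside splicing factors and Neat1 is the scaffold of paraspeckles. Norad (listed as 2900097C17Rik) binds Pumilio proteins in the cytoplasm, and Cyrano (Oip5os1, listed as 1700020I14Rik) carries a site that leads to the decay of the microRNA miR-7. Other lincRNA genes are the precursors of microRNAs or small nucleolar RNAs, and many have no known role. Of the 59 members, 46 have a clone name or a serial name as their symbol in GENCODE. Some of these have another name in RefSeq, as 2900097C17Rik and 1700020I14Rik do.

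The sequences shown first are those by which the named members are known to act, read from GENCODE vM21 transcripts. In the 4915-base transcript of 2900097C17Rik the Pumilio motif TGTANATA was found at 11 places on the sense strand, 2 of them starting 9 bases apart. Only this transcript had as many among 454 lincRNA transcripts of 3000 to 7000 bases; the next highest had 5, and 39.4% had at least 1. Among the members, 20 had the motif in their longest transcript and 39 did not. The first 4 places are shown with the motif in capitals, at chr2:156392311-156392340, chr2:156391815-156391844, chr2:156391626-156391655 and chr2:156391439-156391468 on the minus strand (GRCm38).
2900097C17Rik place 1: tagaagtcctgTGTATATAatatgaaaaag
2900097C17Rik place 2: agtaaacatgcTGTAAATAcctttttgtta
2900097C17Rik place 3: tggcttttcttTGTACATAgtgtatgtaaa
2900097C17Rik place 4: actgactgctgTGTATATAgtggacaacag

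In 1700020I14Rik, the site for miR-7 lies at chr2:119602137-119602161 on the plus strand. The 8 bases in capitals pair with the 5′ end of the microRNA, and all 13 bases at the 5′ end of the site pair with its 3′ end. The 8300-base transcript held 2 matches to the seed. The microRNA is from RefSeq (GRCm38.p6), with its seed (bases 2 to 8) in capitals.
1700020I14Rik site: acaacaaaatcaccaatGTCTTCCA
mmu-miR-7a-5p: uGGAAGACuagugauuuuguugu

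The long transcript of Neat1 ends in the genome-encoded tract shown in capitals (chr19:5824708-5824767, minus strand), which takes the place of a poly(A) tail.
Neat1 3′ end: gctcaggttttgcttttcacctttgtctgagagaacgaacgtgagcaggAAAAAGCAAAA

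Mature microRNAs were the third kind of sequence: 6 members contain 17 of them, as listed by RefSeq, within their span. 4631405K08Rik (Mir205hg) contains Mir205, a microRNA gene of stratified epithelia. AL805899.1 contains Mir31, and 6720427I07Rik contains Mirlet7d, Mirlet7f-1 and Mirlet7a-1, whose 5p products share the seed GAGGUAG. The mature sequences are shown with the seed in capitals, since these members are named below. The libraries measured the host transcripts and not the mature microRNAs: of the 10 microRNA genes inside members, 6 were at 0 in all corneas and the others lay between 0.78 and 2.13 on the rlog scale.
mmu-miR-205-5p: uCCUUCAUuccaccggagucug
mmu-miR-31-5p: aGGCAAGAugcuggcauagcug
mmu-let-7a-5p: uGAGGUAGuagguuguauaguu
mmu-let-7f-5p: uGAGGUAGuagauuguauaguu
mmu-let-7d-5p: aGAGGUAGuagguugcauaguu

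The levels of the members spanned a wide range. The mean was 10 or more in 14 members, 9 or more in 27, and between 8 and 9 in 32, with a median of 8.81. Malat1 was far above the rest. Its values were 19.63, 19.76, 19.65 and 19.57 in BALB/cN corneas 1 to 4 and 19.56, 19.48, 19.92 and 19.79 in C57BL/6N corneas 1 to 4. The strains overlapped, and the highest values were those of C57BL/6N 3 and 4 and BALB/cN 2. On the linear scale Malat1 took 2.32% ± 0.119 (SD, 4 corneas) of the summed values of all genes in BALB/cN, and its share in C57BL/6N was 2.31% ± 0.296 (SD, 4 corneas). All 59 members together took 2.55% in each strain, and the members other than Malat1 and Neat1 took 0.125% and 0.128%.

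**Figure D1:**
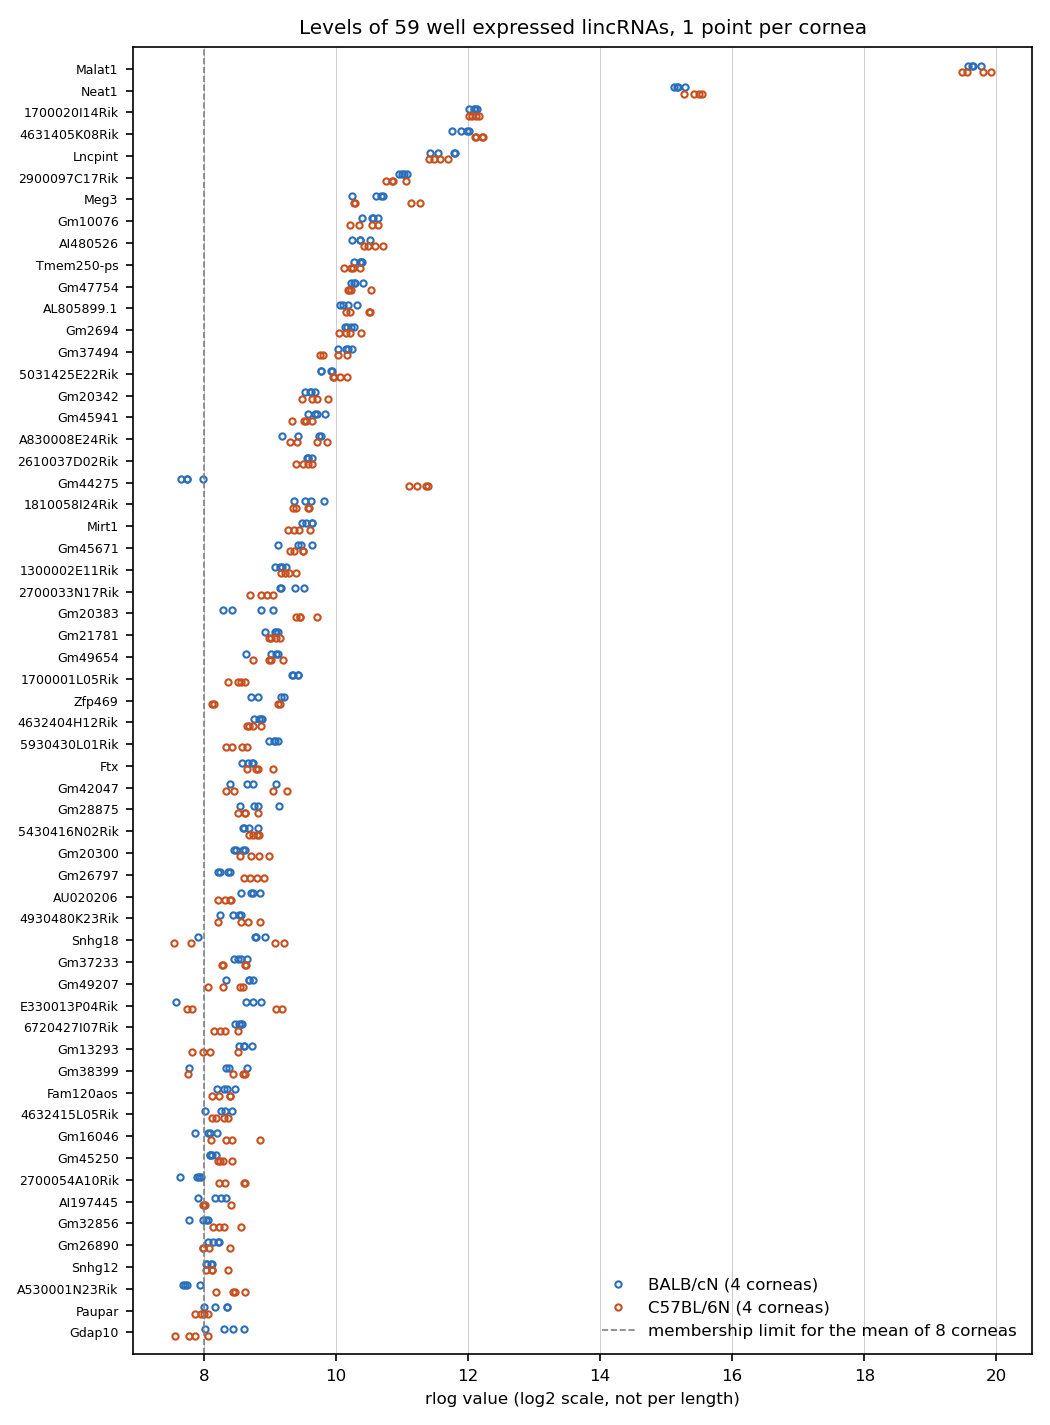
Each row is a member, ordered by the mean, and each point is 1 cornea on the rlog scale (BALB/cN in blue, C57BL/6N in red, 4 corneas each). Malat1 lies near 19.67 and Neat1 near 15.31, 32 members lie between 8 and 9, and Gm44275 is the member whose strains lie farthest apart.

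Neat1 was the next highest member, with 15.28, 15.17, 15.18 and 15.12 in the BALB/cN corneas and 15.27, 15.42, 15.54 and 15.49 in the C57BL/6N corneas. BALB/cN 1 and C57BL/6N 1 were nearly equal, so the strains overlapped by 0.01. 1700020I14Rik followed with values of 12.01 to 12.17 over all corneas and 4631405K08Rik with 11.75 to 12.23. Lncpint, a p53-responsive lincRNA, ranged from 11.41 to 11.8, 2900097C17Rik from 10.76 to 11.08 and Meg3, an imprinted maternally expressed RNA, from 10.25 to 11.28. Next in level were Gm10076 (mean 10.48), AI480526 (10.46), Tmem250-ps (10.3), Gm47754 (10.29), AL805899.1 (10.26), Gm2694 (10.2), Gm37494 (10.05) and 5031425E22Rik (9.95). The neighbours 1700020I14Rik and 4631405K08Rik overlapped in their values, as did most neighbours lower in the order.

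Per kilobase of exons, on the linear scale of the mean rlog value, the order was different. Malat1 stayed first with 119000 per kb, followed by Gm10076 with 3730, Gm47754 with 3230, 4631405K08Rik with 1990, Neat1 with 1950, Gm49207 with 1290 and AL805899.1 with 1120. Gm45941, 2700033N17Rik, 1700020I14Rik, Tmem250-ps, Lncpint, 2900097C17Rik, Gm28875 and Gm20383 came next, from 808 down to 356. Some of these short members share their sequence with coding genes. Gm10076 is a pseudogene in RefSeq and was 99.5% identical over 383 of its 384 bases to Rpl41, a ribosomal protein gene with a mean rlog value of 11.6. Gm49207 was 99.6% identical over 268 of its 279 bases to Ahsa1, which encodes an activator of Hsp90 and had a mean of 9.87. The reads of both members could have been split from these genes, so their levels are uncertain.

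The lincRNA type did not always hold against other annotation. For 42 members an overlapping RefSeq gene had the same symbol or listed it as a synonym. Gm44275 was not among them, although a RefSeq gene of another name, Gm36582, starts at its annotated start. Of the 42, RefSeq lists 34 as long noncoding, 6 as protein-coding and 2 as pseudogenes, 1 of them transcribed. The 6 are Tmem250-ps, Gm37494, 1810058I24Rik (Stmp1, a small mitochondrial protein), Zfp469, Gm38399 (within Nav1) and Gm32856. Zfp469, a zinc finger gene whose human counterpart is mutated in brittle cornea syndrome, and Gm42047 both lie within the read-through gene Gm20388. In GENCODE, 9 members overlap the span of a protein-coding gene, 7 of them on the same strand. Reads of such members cannot be told from those of an overlapping exon on the same strand.

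A group of members starts beside a coding gene on the other strand. Within 1000 bases of the start of a protein-coding gene lay the starts of 8 members, and 6 of these are on the opposite strand. They are 4632404H12Rik (376 bases from Ube2q1), AI480526 (527 bases from Setd1b), 5031425E22Rik (172 bases from Kmt2e), 4930480K23Rik (243 bases from Chmp7), Snhg18 (148 bases from Sema5a) and Fam120aos (270 bases from Fam120a). Setd1b and Kmt2e belong to the family of histone methyltransferase-related SET domain proteins. None of the 6 differed between the strains at the threshold in limma, with adjusted p-values of 0.159 to 0.816. The unadjusted p-value was under 0.05 in 1 of them, and in 2 in the robust fit. Over genes of the same level 9.29% were called, and 6 members are too few to tell their share from that.

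Between the strains, 7 of the 59 members (11.9%) were called in limma (adjusted p-value up to 0.01, Benjamini-Hochberg adjustment over 25402 genes), 2 higher and 5 lower in BALB/cN. Over all genes tested 5.74% were called, 2.83% higher and 2.91% lower. Among the 10372 tested genes of the same level (mean rlog from 8 upwards) the share was 9.29%, among 9643 protein-coding genes of that level 9.14%, and among the 1367 less expressed lincRNAs 2.27%. The share of members lay near that of other genes of the same level, which were chosen by the same limit. Of the 7 called members, 3 had a mean under 8 in BALB/cN and passed the limit through C57BL/6N. The median difference over the members, BALB/cN minus C57BL/6N, was 0.003, against 0.008 over all genes, and the median size of the difference was 0.153, against 0.123 over genes of the same level. For 43 members (72.9%) the difference was under 0.25 in size, against 75.6% of genes of the same level. The median spread within a strain was an SD of 0.145 for members and 0.105 for genes of the same level.

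The strains were fully separated, with every cornea of a strain above every cornea of the other, for 14 members (23.7%), against 18.3% of all genes and 25.6% of genes of the same level. All 7 called members were among the 14. In 6 members the mean of a strain was under 8, so that they were chosen through the strain in which they were higher, and 3 of these were called (Gm44275, A530001N23Rik and 2700054A10Rik). For a single gene the smallest p of an exact permutation test with 4 against 4 corneas is 0.0286. After recalibration to an empirical null distribution with an SD of 1.68, limma called no member, no less expressed lincRNA and no protein-coding gene of the same level; 7 members remained under 0.05 without adjustment. Among 13 lists of cell type markers, those of the conjunctiva and the photoreceptors also separated the strains. The mean of 7 conjunctiva genes was 8.83 to 9.25 in BALB/cN and 9.42 to 9.67 in C57BL/6N, and none of the 7 was at 0. Of these, Krt13, Krt4, Krt19, Krt7 and Muc4 were called lower in BALB/cN. The other 2 had higher values in BALB/cN without a call: Krt8 was at 4.23 to 4.49 in BALB/cN and 3.9 to 4.07 in C57BL/6N (difference 0.4, adjusted p = 0.0111 in limma), and Muc5ac, the mucin of goblet cells, was at 5.21 to 7.8 in BALB/cN and 4.35 to 4.51 in C57BL/6N (adjusted p = 0.0225 in limma). The mean of 6 photoreceptor genes was 3.16 to 3.52 and 2.97 to 3.12, with 1 gene at 0, none called in limma and 1 under 0.05 without adjustment. The part of either in the differences of the members was not tested.

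**Figure D2:**
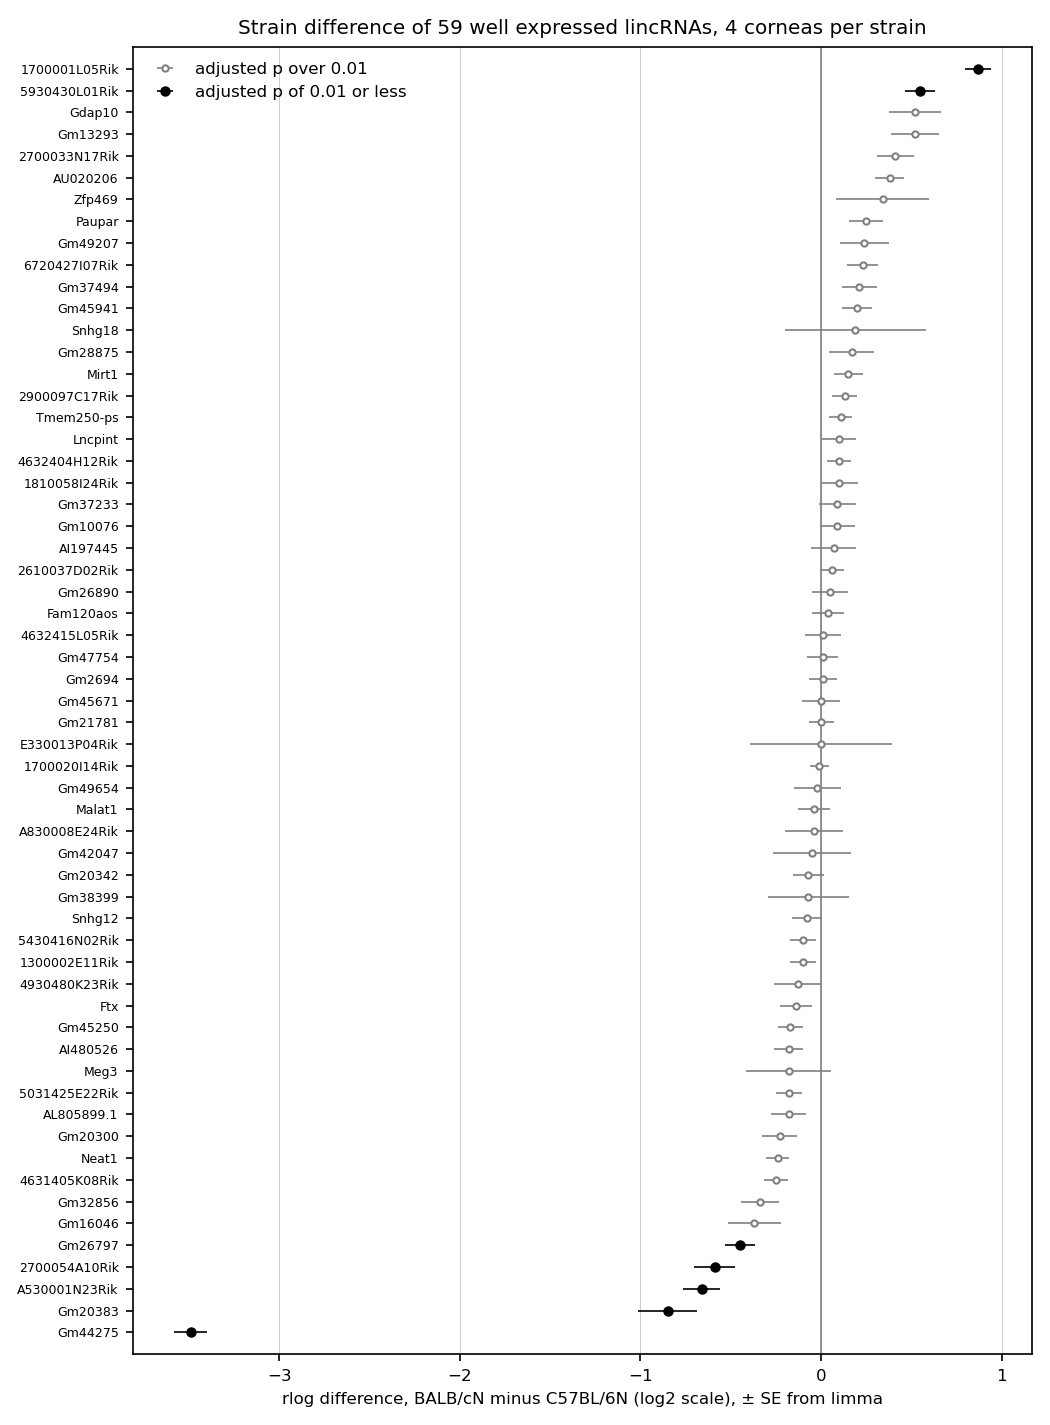
Each row is a lincRNA, and the point is the rlog difference BALB/cN minus C57BL/6N (log2 scale) with its standard error from limma, 4 corneas per strain. Filled points mark the 7 called members. Gm44275 lies at -3.49, 1700001L05Rik at 0.87, and the 52 uncalled members lie between -0.37 and 0.52.

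Gm44275 had by far the largest difference. This lincRNA of 4 exon blocks without a known role lies at chr6:135312155-135319561 on the minus strand. Its rlog values were 7.65, 7.75, 7.98 and 7.74 in the BALB/cN corneas and 11.11, 11.23, 11.36 and 11.39 in the C57BL/6N corneas. The groups were at least 3.12 apart, with C57BL/6N higher, and the corneas poor in stroma or rich in lens genes did not stand apart. The limma difference was -3.49 ± 0.0915 (SE, adjusted p = 3.56e-08), which is 11.2-fold on the shrunken scale. It was the only member that differed by more than 1 in size, that is 1.69% of members. The share was 1.76% over all genes and 2.15% over genes of the same level.

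The genes on both sides of Gm44275 were lower in BALB/cN too. Pbp2, a testis-enriched gene of the phosphatidylethanolamine-binding protein family, lies 1749 bases beyond the 3′ end of Gm44275 on the same strand. Its values were 6.69, 6.58, 6.52 and 6.54 in BALB/cN and 10.43, 10.46, 10.54 and 10.68 in C57BL/6N. The strains were 3.75 apart, against 3.12 for Gm44275, with a difference in limma of -3.94 ± 0.0763 (SE, adjusted p = 5.44e-09). Emp1, which encodes an epithelial membrane protein, starts 42983 bases from Gm44275 on the plus strand. It was at 16.56, 16.76, 16.79 and 16.65 in BALB/cN and at 17.27, 17.21, 17.32 and 17.5 in C57BL/6N, a smaller shift that still separated the strains (limma difference -0.63 ± 0.072 SE, adjusted p = 0.000409). Whether Pbp2 and Gm44275 are parts of the same transcript was not tested.

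**Figure D3:**
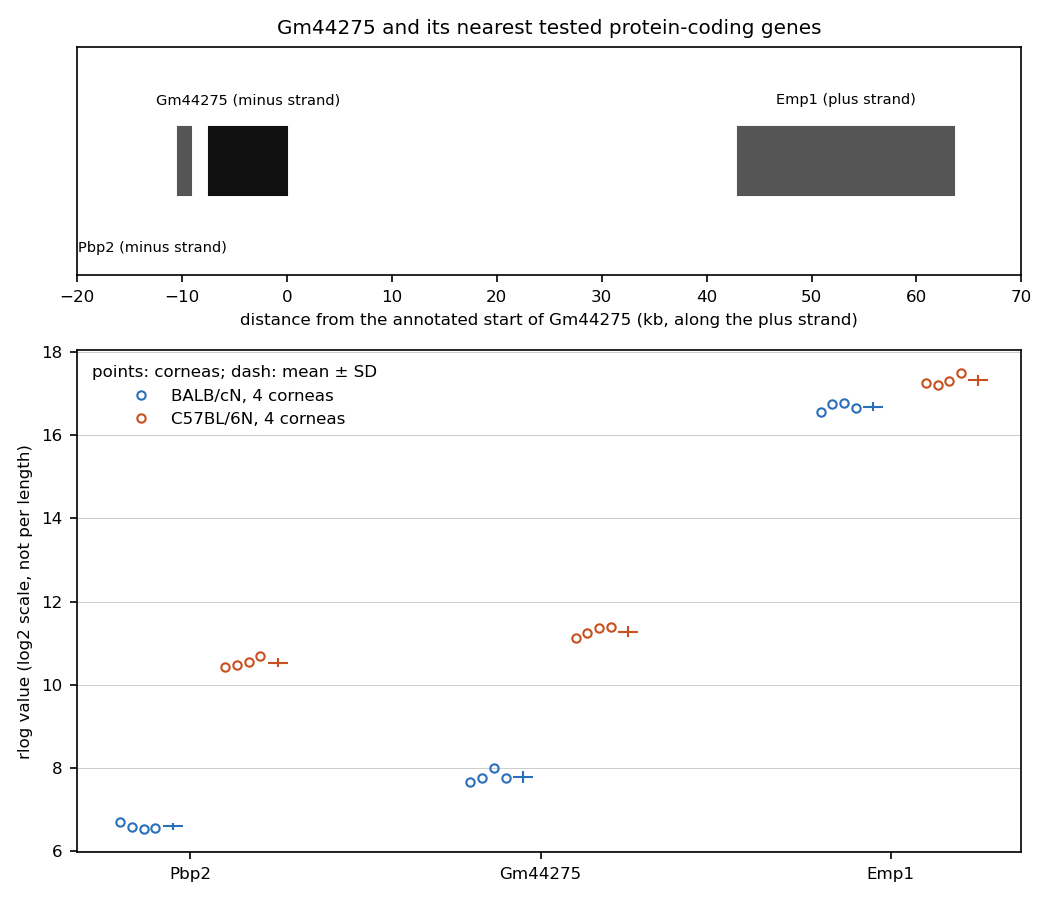
The upper panel places Gm44275, Pbp2 and Emp1 by their distance in kb from the annotated start of Gm44275, and the lower panel gives the rlog value of each gene in every cornea (BALB/cN in blue, C57BL/6N in red, dash for the mean ± SD of 4 corneas). The strains differ by -3.94 for Pbp2, -3.49 for Gm44275 and -0.63 for Emp1, BALB/cN minus C57BL/6N.

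1700001L05Rik had the largest difference in the other direction. It lies at chr15:83353847-83367282 on the minus strand, between Arfgap3 and Pacsin2. Its values were 9.43, 9.35, 9.33 and 9.42 in BALB/cN and 8.62, 8.36, 8.51 and 8.57 in C57BL/6N. The strains were separated by 0.71, and the BALB/cN corneas were close to each other. The limma difference was 0.87 ± 0.0714 (SE, adjusted p = 5.15e-05). Neither neighbour was called, with a difference of -0.12 for Arfgap3, 3599 bases away, and 0.02 for Pacsin2, 8324 bases away.

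The promoters of these 2 members are shown because their strain differences were the largest in each direction. They run from 250 bases before to 50 bases after the start of the RefSeq gene (GRCm38.p6), which is listed there as Gm36582 for Gm44275, with the transcribed 50 bases in capitals. The window of Gm44275 (chr6:135319512-135319811, minus strand) has 50% G and C and a ratio of observed to expected CpG of 0.162. That of 1700001L05Rik (chr15:83367248-83367547, minus strand) has 70.3% and 0.893. Both are sequences of the reference, and BALB/cN differences from them were not analysed here.
Gm44275: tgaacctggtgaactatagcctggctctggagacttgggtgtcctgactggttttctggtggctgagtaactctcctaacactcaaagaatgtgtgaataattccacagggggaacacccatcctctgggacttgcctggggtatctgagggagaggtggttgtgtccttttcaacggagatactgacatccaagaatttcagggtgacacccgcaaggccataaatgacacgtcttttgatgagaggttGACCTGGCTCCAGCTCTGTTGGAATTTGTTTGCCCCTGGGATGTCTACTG
1700001L05Rik: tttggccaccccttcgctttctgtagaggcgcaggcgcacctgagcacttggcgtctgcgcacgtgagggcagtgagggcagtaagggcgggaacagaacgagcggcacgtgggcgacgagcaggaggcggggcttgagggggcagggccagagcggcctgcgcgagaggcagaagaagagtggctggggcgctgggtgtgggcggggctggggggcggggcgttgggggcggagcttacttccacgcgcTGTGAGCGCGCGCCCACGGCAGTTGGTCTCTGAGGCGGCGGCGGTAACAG

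5930430L01Rik (chr5:148990056-148995223, minus strand) was the other member higher in BALB/cN. It was at 9.12, 8.98, 9.07 and 9.06 in BALB/cN and at 8.66, 8.33, 8.58 and 8.43 in C57BL/6N. The strains were separated by 0.31, with a difference in limma of 0.55 ± 0.0829 (SE, adjusted p = 0.00218). It starts 76 bases from Gm42791 on the same strand, which overlaps it. Of its tested coding neighbours, Hmgb1, a chromatin protein and alarmin, differed by 0.26 (adjusted p = 0.0303 from limma) and Katnal1 by 0.11, neither past the threshold.

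The other 4 called members were lower in BALB/cN. Gm20383 (chr6:81984321-81992413, plus strand) was at 9.05, 8.86, 8.29 and 8.42 in BALB/cN and at 9.39, 9.46, 9.46 and 9.72 in C57BL/6N. The BALB/cN corneas spread more widely, with 3 and 4 lowest, but none reached a C57BL/6N cornea (limma difference -0.85 ± 0.162 SE, adjusted p = 0.00832). Its neighbours Mrpl19 and Eva1a, with differences of -0.03 and -0.21, were not called.

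A530001N23Rik (chr13:60483504-60488808, minus strand) was at 7.74, 7.94, 7.71 and 7.69 in BALB/cN and at 8.19, 8.47, 8.63 and 8.44 in C57BL/6N. The strains did not overlap (limma difference -0.66 ± 0.103 SE, adjusted p = 0.00285). Of its neighbours, Dapk1, a death-associated protein kinase 113138 bases away, was called as well and differed by -0.58 (adjusted p = 0.00295 from limma). Gas1, a hedgehog co-receptor 306138 bases away, missed the threshold with -0.26 (adjusted p = 0.0101 from limma).

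Gm26797 (chr9:122295869-122310928, minus strand) was at 8.39, 8.37, 8.21 and 8.24 in BALB/cN and at 8.7, 8.61, 8.91 and 8.8 in C57BL/6N. The strains were separated by a small margin (limma difference -0.45 ± 0.0836 SE, adjusted p = 0.00712). Ano10, 1445 bases away, differed by 0.01, and Abhd5, a lipase co-activator, by -0.24 (adjusted p = 0.0406), neither called.

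2700054A10Rik (chr17:13482553-13668891, minus strand) lies in the wide part of chromosome 17 that the study had linked to lymphatic vessel traits. The study kept only protein-coding or antisense genes as candidates there. 2700054A10Rik was at 7.64, 7.96, 7.9 and 7.92 in BALB/cN and at 8.23, 8.32, 8.62 and 8.61 in C57BL/6N. The strains were separated, with BALB/cN 1 lowest (limma difference -0.59 ± 0.115 SE, adjusted p = 0.00931). A stretch of 270 bases was 95.6% identical to Zfp934, a zinc finger gene that differed by 0.38 in the other direction without a call (adjusted p = 0.0341). The nearest tested coding genes, Smok2b and Tcte2, were not called. Gm16046, the only other member on this chromosome, lies 6770 bases from it on the same strand and was at 7.87 to 8.2 in BALB/cN and 8.11 to 8.85 in C57BL/6N, which overlap (difference -0.37, adjusted p = 0.154 from limma).

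The calls were not equally firm. Gm44275 and 1700001L05Rik kept theirs in 18 of 19 alternatives and lost it under the empirical null. That null called no protein-coding gene of the same level either, so a call lost there does not set a member apart. Without 1 cornea at a time, the difference of Gm44275 lay between -3.56 and -3.45 and that of 1700001L05Rik between 0.82 and 0.9. 5930430L01Rik kept its call in 7 of the 8 fits without a cornea and A530001N23Rik in 3, whereas Gm20383, Gm26797 and 2700054A10Rik each kept it in 1. Of the 7, only Gm44275 and 1700001L05Rik stayed called without the 3 stroma-poor corneas, and the same 2 stayed called without the 2 lens-bearing corneas. These fits hold fewer corneas, and the differences that lost a call kept their direction. Without the stroma-poor corneas they were 0.59 for 5930430L01Rik, -0.84 for Gm20383, -0.61 for A530001N23Rik, -0.45 for 2700054A10Rik and -0.38 for Gm26797. Without the stroma-poor corneas 2 further members, Gm13293 and Meg3, were called, which made 4 in all.

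A further 6 members had an adjusted p-value between 0.01 and 0.05, which brought the count at 0.05 to 13 of 59 (22%), against 11.2% of all genes and 17.7% of genes of the same level. AU020206 differed by 0.38 (adjusted p = 0.015), 2700033N17Rik by 0.41 (0.0321), Gm13293 by 0.52 (0.037) and Gdap10 by 0.52 (0.0459), with the higher mean in BALB/cN. Neat1 differed by -0.24 (0.0383) and 4631405K08Rik, the host of Mir205, by -0.25 (0.0396). The values of 4631405K08Rik were 11.89, 12.02, 11.98 and 11.75 in BALB/cN and 12.1, 12.12, 12.21 and 12.23 in C57BL/6N, which were separated by 0.08. These 6 are values short of the threshold. With the stromal level as a covariate, AU020206, 2700033N17Rik, Gm13293 and Meg3 passed it and 11 members were called in all.

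The nuclear RNAs showed small differences. For Malat1 the difference was -0.04 (adjusted p = 0.844) and its sign changed with the normalization. Ftx, a regulator of Xist, is the only member on the X chromosome; it was at 8.58 to 8.75 in BALB/cN and 8.65 to 9.04 in C57BL/6N, which overlapped (difference -0.14, adjusted p = 0.376 from limma). Lncpint was at 11.8, 11.78, 11.43 and 11.55 in BALB/cN and at 11.41, 11.48, 11.69 and 11.58 in C57BL/6N, also overlapping (difference 0.1, adjusted p = 0.567 from limma). Some reads of Ftx can be shared with other genes, since 36 genes with reads matched it at 95% or more over at least 200 bases. Of these, Gm38020 and Gm27321 overlap Ftx itself. The longest of the other matches was 213 bases, a small part of the 10205 exon bases of Ftx.

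Neither of the 2 members that act in the cytoplasm was called. 1700020I14Rik was at 12.1, 12.13, 12.09 and 12.01 in BALB/cN and at 12.02, 12.12, 12.06 and 12.17 in C57BL/6N. Its spread within a strain, an SD of 0.0586, was the smallest of the members, followed by Gm45250 (0.0682), 4632404H12Rik (0.0745), 2610037D02Rik (0.0792) and Tmem250-ps (0.0796). Its strains overlapped, and its limma difference was -0.01 ± 0.0511 (SE, adjusted p = 0.912). 2900097C17Rik was at 11.08, 11, 10.96 and 11.03 in BALB/cN and at 10.85, 11.06, 10.76 and 10.87 in C57BL/6N, which overlapped (difference 0.13, adjusted p = 0.285 from limma). Gm7292 on chromosome 6, a much weaker lincRNA with a mean rlog value of 5.09 that was 99.2% identical to 2900097C17Rik over 2537 bases, differed by 0.88 (adjusted p = 0.000321 in limma).

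Among hosts of small RNAs, Snhg12 was at 8.03 to 8.12 in BALB/cN and 8.03 to 8.36 in C57BL/6N without a call (difference -0.08, adjusted p = 0.588 from limma). The 5 small nucleolar RNA entries inside it, of which 2 are overlapping entries of Snora16a, were at 0 in every cornea. They lie within the exon block of Snhg12 on its strand, so values of 0 do not show that these RNAs were absent. 6720427I07Rik, with the let-7 genes, was at 8.47, 8.58, 8.56 and 8.53 in BALB/cN and at 8.15, 8.25, 8.51 and 8.32 in C57BL/6N. Only C57BL/6N 3 reached into the BALB/cN range (difference 0.23, adjusted p = 0.132 from limma). No small RNA gene was found inside Mirt1, which had a difference of 0.15 (adjusted p = 0.295), while 4833407H14Rik, which overlaps Mirt1 with identical sequence over 1011 bases, differed by -0.72 (adjusted p = 0.00133 in limma). Paupar, which lies upstream of Pax6 on the opposite strand, was at 8.35, 8.35, 8.17 and 8 in BALB/cN and at 7.86, 8.06, 8 and 7.95 in C57BL/6N. The strains overlapped only through BALB/cN 4 (difference 0.25, adjusted p = 0.138 from limma), and Pax6, the master regulator of the corneal epithelium, differed by -0.2 (adjusted p = 0.252).

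Members and other noncoding RNAs of known role were also counted over lists, of which 51 of 70 genes were tested and 11 are members. Of the 51, 1 gene was called (1.96%, against 5.74% of all genes): Epb41l4aos, with a difference of 0.48 (adjusted p = 0.00991 in limma). It is not a member and was listed with the cytoplasmic regulators, but where its RNA lies in the cell was not measured. Limma called none of the 15 nuclear and chromatin RNAs, whose median difference was -0.15 and of which 5 had an unadjusted p-value under 0.05. Also without a call were the 17 genes listed as small nucleolar RNA hosts (median 0.02, 3 under 0.05 unadjusted). The same held for 12 genes listed as microRNA hosts (0.07 and 2) and 9 imprinted RNAs (0.12 and 3). The list of microRNA hosts includes Mirt1, in which no microRNA gene was found, and leaves out AL805899.1, 6720427I07Rik and Gm37233, which contain one or more. None of the 7 called members is on these lists.

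A few members followed the stromal level of the cornea. The slope of the rlog value on the mean of the 8 stromal keratocyte genes, with strain in the model, was called in 4 members that rose (6.78%) and 2 that fell (3.39%). Over all genes 4.72% rose and 1.33% fell, and over genes of the same level 6.58% rose and 3.12% fell. The 4 that rose were also those with the largest spread within a strain, with SDs of 0.412 to 0.694. Since 3 corneas lay far below the other 5 in the stromal mean, the slope in effect compares these sets. The 4 members that rose passed the threshold in all 12 fits run, including those without a cornea.

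Snhg18, a host of the small nucleolar RNA gene Snord123, was at 8.79, 7.91, 8.78 and 8.93 in BALB/cN and at 9.07, 9.22, 7.8 and 7.55 in C57BL/6N. The 3 stroma-poor corneas were the lowest, in both strains (slope 0.51 per unit of the stromal mean, adjusted p = 5.81e-06 from limma). E330013P04Rik, without a known role, was at 8.64, 7.58, 8.87 and 8.75 in BALB/cN and at 9.18, 9.09, 7.75 and 7.82 in C57BL/6N. The same 3 corneas were lowest again (slope 0.52, adjusted p = 9.78e-06 from limma).

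Meg3 was at 10.61, 10.25, 10.72 and 10.68 in BALB/cN and at 11.14, 11.28, 10.28 and 10.29 in C57BL/6N. The lowest values were those of the stroma-poor corneas, and among the other 5 the C57BL/6N corneas were highest (slope 0.31, adjusted p = 1.42e-05 from limma). Its strain difference was -0.18 over all corneas (adjusted p = 0.69), -0.4 with the stromal level as a covariate (adjusted p = 0.000899) and -0.54 without the 3 stroma-poor corneas (adjusted p = 0.00552 from limma). Zfp469 was at 8.82, 8.72, 9.21 and 9.17 in BALB/cN and at 9.15, 9.13, 8.16 and 8.12 in C57BL/6N. C57BL/6N 3 and 4 were lowest and BALB/cN 2 came next (slope 0.32, adjusted p = 0.000739 from limma).

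Malat1 and AL805899.1, the host of Mir31, fell as the stromal mean rose. AL805899.1 was at 10.18, 10.32, 10.06 and 10.1 in BALB/cN and at 10.15, 10.22, 10.5 and 10.51 in C57BL/6N. As for Malat1, the 3 stroma-poor corneas were the highest. The slope was -0.11 for both (adjusted p = 0.000613 for Malat1 and 0.00575 for AL805899.1, from limma), close to that of Pax6 with -0.12 (adjusted p = 3.95e-05). Malat1 passed in 11 of the 12 fits and AL805899.1 in 6. With each cornea centred on its median, 16 members fell in place of 2, so the count of falling members depends on the normalization.

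**Figure D4:**
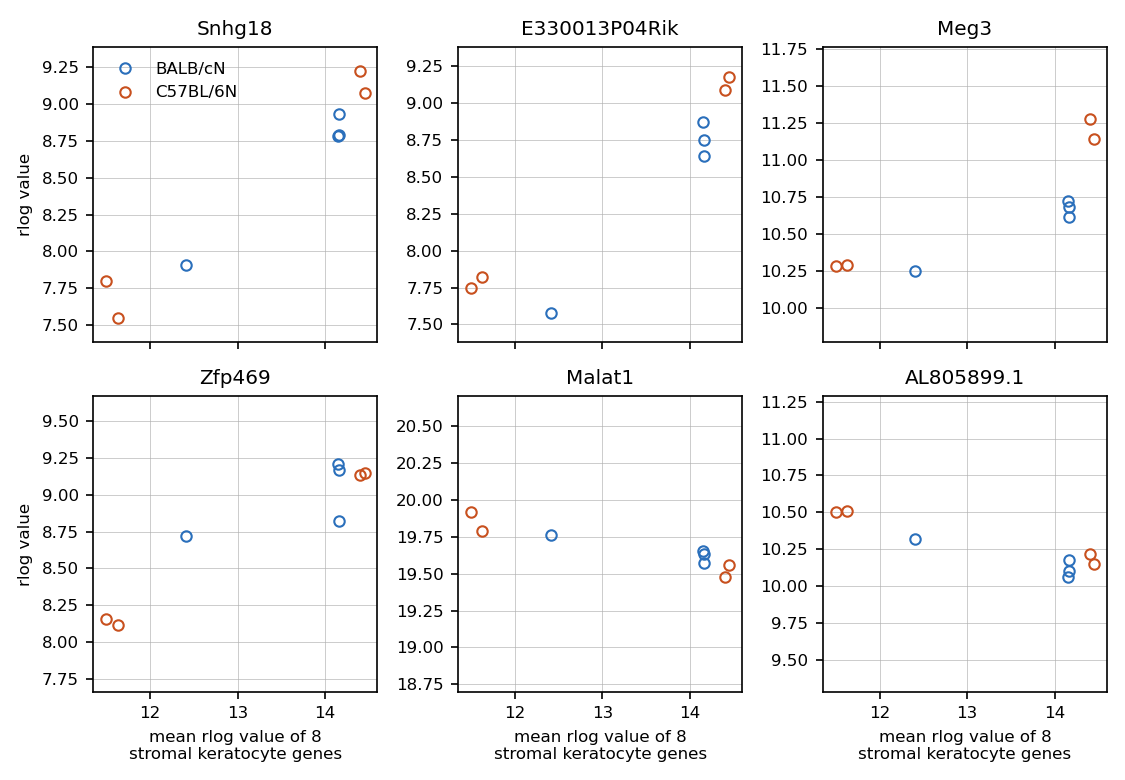
Each panel plots the rlog value of a lincRNA against the mean rlog value of 8 stromal keratocyte genes, 1 point per cornea (BALB/cN in blue, C57BL/6N in red), and every vertical axis spans 2 log2 units. Snhg18, E330013P04Rik, Meg3 and Zfp469 are lowest in the 3 corneas with a stromal mean of 12.41 or less, and Malat1 and AL805899.1 are highest there.

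The limit of the choice was crossed by small steps. The members just above it were Gdap10 with a mean rlog value of 8.08, Paupar with 8.09, A530001N23Rik with 8.10, Snhg12 with 8.12 and AI197445 with 8.14. The lincRNAs just below were D130017N08Rik and Gm8066 with 7.98, Gm13830 and CT486005.1 with 7.95 and 2610035D17Rik with 7.93. With a limit of 7, 13 of 116 lincRNAs (11.2%) were called, and with a limit of 9, 2 of 27 (7.41%) were, beside the 7 of 59 (11.9%) with the limit used. Over all genes with a mean of 8 or more the share was 9.29%. It was not computed for all genes at limits of 7 and 9, so the shares there cannot be set against a background.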

How the data were processed

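Strand-specific total RNA libraries were made from whole corneas, 4 per strain. After trimming, the authors discarded ribosomal and transfer RNA reads, mapped the others with TopHat2 2.1.1 to versions of GRCm38 that carry the variants of each strain, moved the alignments to the common reference, tallied reads per gene with HTSeq 0.7.1 and applied DESeq2 1.30 (versions from the submitters' processing notes and the methods). The deposited values are rlog values on a log2 scale, scaled for library size. They are not counts, and no counts were recovered here. Every column was mapped to a cornea by its label, and 0 columns were left unused.

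Gene types, spans and exons came from GENCODE vM21, and RefSeq tables gave promoters (23 members), microRNAs and gene types. Promoter properties over the members were not compared, since too few had a promoter. The strain comparison used lmFit and eBayes of limma 3.58.1 in R 4.3.3, with a variance trend. The 23218 genes at 0 in every cornea were left out first. Of the rest, the 25402 genes whose rlog averaged 0 or more were tested, with Benjamini-Hochberg adjustment over all of them. Called means an adjusted p-value of 0.01 or less. The stromal slope was fitted in the same way with strain in the model. Values of single genes were compared by exact two-sided permutation. Near-identical copies (at least 95% identity over at least 200 bases) were searched with BLAST 2.17.0. Other steps ran in Python 3.11.15 with pandas 2.3.3 and numpy 2.4.6, and plots in matplotlib 3.10.9. The procedure was tested on simulated data.

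The members, lists and tests were chosen with earlier results of these data known. Named are all called members, the highest by level and per kb, those nearest the limit, those with the largest and smallest spread, those on chromosome 17, genes of the role lists, the nearest coding genes of called members, small RNA genes inside named members, and marker genes. No pair of corneas of a strain held the same values: at most 8.04% of genes agreed to 0.01. The alternatives were a fit without the variance trend or with robust weights, no filter or a mean of at least log2(10), quantile normalization, median centring, a replicate block, an empirical null, a stromal covariate, an adjusted p of 0.05, other limits for membership, all long noncoding types and leaving out each cornea. Leaving out the 3 stroma-poor or the 2 lens-bearing corneas, and the stromal slope with its alternatives, were chosen after seeing the data.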

Additional observations from a re-analysis of the deposited data

Results flagged for a closer look

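Within each strain, 118 groups of 4 values (59 members in 2 strains) were examined for a cornea that stood far from the other 3, taken as a gap to its nearest neighbour that, as a share of the whole range, passed Dixon's 95% limit. Chance flags about 1 in 20 groups, or 5.9 of 118, and 3 were flagged. In C57BL/6N, replicate 3 was highest for AI197445 (8.41, the next 8.01; gap of 0.962 of the range) and for Gm47754 (10.53, the next 10.23; 0.856 of the range). In BALB/cN, replicate 2 was lowest for Snhg18 (7.91, the next 8.78; 0.852 of the range). BALB/cN 2 and C57BL/6N 3 are both among the 3 stroma-poor corneas. The slopes on the stromal mean were -0.07 for AI197445 and -0.04 for Gm47754 (adjusted p = 0.371 and 0.564 from limma).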

How the results depend on the processing

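The number of members called between the strains was 7, 2 higher and 5 lower in BALB/cN. It was 4 (1 and 3) with median centring, 0 under the empirical null, 2 (1 and 1) with the replicate block, 11 (5 and 6) with the stromal covariate, 4 (2 and 2, of which 2 are among the 7) without the stroma-poor corneas, 2 (1 and 1) without the lens-bearing corneas, 13 (6 and 7) at an adjusted p of 0.05, 13 of 116 genes (11.2%, 4 and 9) with a limit of 7, 2 of 27 (7.41%, 0 and 2) with a limit of 9 and 14 of 171 (8.19%, 6 and 8) over all long noncoding types, beside 11.9% of the 59. Over all genes with a mean of 8 or more 9.29% were called in the main fit, and no such share was computed at limits of 7 and 9. The 5 lower members became 3 without a variance trend, without a filter and with quantile normalization. Leaving out each cornea gave 3 to 5 members, 1 to 3 higher and 1 to 3 lower; the counts were lowest, 3, without BALB/cN 1, 3 or 4 or C57BL/6N 4. With centring 9 members in place of 14 were separated. Leaving out a cornea gave 15 to 19, but it can only keep or raise this count, so it does not test it. The share of all genes separated was not computed in these settings. Replicate numbers did not pair the corneas (correlations of 0.305, -0.53, -0.203 and -0.454 between same-numbered corneas).

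The role lists had 1 call, which became 0 with no filter, centring, quantile normalization, the empirical null or the replicate block, without the lens-bearing corneas and without any single cornea (range 0 to 0, with 8 to 15 genes under an unadjusted p of 0.05 in limma), 3 with the stromal covariate and 4 at an adjusted p of 0.05. The less expressed lincRNAs had 31 calls, and 0 under the empirical null, 10 with the block, 12 without the stroma-poor and 7 without the lens-bearing corneas, 66 at an adjusted p of 0.05 and 20 to 27 without a cornea. The protein-coding genes of the same level had 881, and 479 with centring, 0 under the empirical null, 330 with the block, 1532 with the stromal covariate, 554 without the stroma-poor and 252 without the lens-bearing corneas, 1689 at an adjusted p of 0.05 and 564 to 710 without a cornea. Members falling with the stromal level numbered 1 without a variance trend, 16 with centring and 1 to 2 without a cornea.

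For 28 named members, 441 of 532 repeated differences kept their direction and side of the threshold, 58 lost and 7 gained a call, and 26 changed sign, all in members not called. Malat1 (-0.04) was 0.1 with quantile normalization, 0.04 with the stromal covariate, 0.09 without the stroma-poor and 0.01 without the lens-bearing corneas, and -0.11 to 0.04 without a cornea. 1700020I14Rik (-0.01) was 0.01 with quantile normalization, 0 with the covariate, 0.01 without the lens-bearing corneas and -0.04 to 0.01 without a cornea. Snhg18 (0.19) was -0.18 with the covariate, -0.31 and -0.07 without the stroma-poor and the lens-bearing corneas, and -0.09 to 0.46 without a cornea. Zfp469 (0.34) was -0.07 without the stroma-poor corneas. E330013P04Rik, at 0 in the main comparison, was -0.07 with centring, -0.06 with quantile normalization, -0.37 with the covariate, -0.38 and -0.23 without the stroma-poor and the lens-bearing corneas, and -0.23 to 0.3 without a cornea. The cause of these changes was not tested.

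Without counts, the depth behind a value is unknown, and the shrinkage of the rlog scale understates the differences of weak genes.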
